A study of Mus musculus with 2 samples.

Results

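The 34 genes described here cover the path from glucose uptake to lactate release, the enzymes that direct pyruvate into mitochondria, and the hypoxia-inducible factors (HIFs) with a set of their targets. They were taken by symbol from the feature list of the libraries, in which 34 of 32246 symbols, or 35 of 32286 feature rows, belonged to them. The gene Aldoa had 2 rows, and these were summed.

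Glycolysis splits glucose into pyruvate and yields ATP without oxygen, and most of its steps are made by enzymes with several paralogs that differ between tissues. When oxygen is low, prolyl hydroxylases no longer mark the HIF alpha subunits for destruction, and these proteins then bind hypoxia response elements and raise the transcription of glucose transporters, glycolytic enzymes and lactate exporters. In the lung, vascular cells are known for Epas1, the alpha subunit that many endothelial cells carry, whereas myeloid cells use Hif1a, and neutrophils depend on glycolysis for most of their energy.

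The genes were read in 2 droplet libraries of single cells, both from whole lung of female BALB/c mice aged 9-10 weeks. Mice of the first group were injected intravenously over 3 weeks with control media (CM), and those of the second with media conditioned by tumor tissue (TCM). TCM was medium in which 4T1 mouse breast tumors had been kept without serum, and the TCM mice serve the study as a model of the lung before metastasis. Each group had 1 library, how many mice it pooled is not given in the sources used here, and the spread between mice could not be measured. No p-value was therefore computed, and every interval below is a 95% interval that covers counting error only.

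The CM library held 31944151 and the TCM library 36648719 unique molecular identifiers (UMIs, each standing for a captured RNA molecule). The filters on UMIs, genes and mitochondrial RNA kept 7988 cells in CM (median depth 2085 UMIs) and 7707 in TCM (median depth 2346 UMIs). Marker gates placed 5851 CM cells (73.2%) and 6159 TCM cells (79.9%) in 21 classes, whose names carry "-like" because they rest on markers. Of 84 class and check marker pairs, with markers that the gates did not use, 64 were highest in their own class. The others included all 4 markers of general capillary and of lymphatic endothelial-like cells, which were shared endothelial genes. The libraries shared 93 cell barcodes, 1.16% of all CM cells and 1.21% of all TCM cells. Levels are given as CP100k, the UMIs of a gene per 100000 UMIs of the class, and depend on the other RNA of the class, so fewer molecules per cell and more of other RNA cannot be told apart.

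The promoters of these genes show where they share sequence. HIF complexes recognise a short core, ACGTG or GCGTG, and both were searched on both strands in the 250 bases before the transcription start. RefSeq promoters of build GRCm38.p6 were found for 31 of the 34 genes, and those of Epas1, Ndrg1 and Slc2a3 were not in the table used. ACGTG stood before 19 of the 31 genes (61.3%), against 18.5% of all 27025 genes with a promoter and 24.9% of the 9353 that had at least 50 UMIs in some class. GCGTG stood before 20 (64.5%), against 30.9% and 49.3%, and 29 genes had either core, against 41.5% and 60.8%. A match is a run of letters and does not show binding. ACGTG and its reverse complement CACGT overlap in CACGTG, which was counted on each strand.

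The following 5 promoters belong to some of the genes read below: the lactate dehydrogenase Ldha, the glucose transporter Slc2a1, the lactate exporter Slc16a3, Hif1a itself and Ankrd37, a small ankyrin repeat protein known as a HIF target. Each is written 5′ to 3′ along the gene, with matches to either core on either strand in capitals. They lie at chr7:46845554-46845803 (+), chr4:119108495-119108744 (+), chr11:120948817-120949066 (+), chr12:73907617-73907866 (+) and chr8:45999851-46000100 (-).
Ldha: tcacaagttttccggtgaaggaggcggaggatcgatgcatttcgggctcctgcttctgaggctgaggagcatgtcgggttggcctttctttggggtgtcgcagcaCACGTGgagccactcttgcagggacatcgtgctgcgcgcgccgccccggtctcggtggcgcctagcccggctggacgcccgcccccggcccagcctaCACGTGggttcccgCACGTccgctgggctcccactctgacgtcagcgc
Slc2a1: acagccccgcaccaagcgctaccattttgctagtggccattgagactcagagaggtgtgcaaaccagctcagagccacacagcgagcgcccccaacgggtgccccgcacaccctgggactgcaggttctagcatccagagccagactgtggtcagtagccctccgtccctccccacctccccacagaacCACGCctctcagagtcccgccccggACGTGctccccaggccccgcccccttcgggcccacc
Slc16a3: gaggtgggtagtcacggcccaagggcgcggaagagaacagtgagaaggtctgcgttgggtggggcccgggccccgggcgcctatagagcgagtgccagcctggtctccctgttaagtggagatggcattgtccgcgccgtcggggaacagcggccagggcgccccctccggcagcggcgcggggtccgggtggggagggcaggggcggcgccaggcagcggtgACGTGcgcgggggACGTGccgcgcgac
Hif1a: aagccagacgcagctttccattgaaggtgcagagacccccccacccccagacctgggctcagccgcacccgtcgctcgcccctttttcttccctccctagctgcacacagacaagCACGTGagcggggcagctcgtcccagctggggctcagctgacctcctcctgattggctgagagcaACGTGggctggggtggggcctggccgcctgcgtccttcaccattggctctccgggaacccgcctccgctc
Ankrd37: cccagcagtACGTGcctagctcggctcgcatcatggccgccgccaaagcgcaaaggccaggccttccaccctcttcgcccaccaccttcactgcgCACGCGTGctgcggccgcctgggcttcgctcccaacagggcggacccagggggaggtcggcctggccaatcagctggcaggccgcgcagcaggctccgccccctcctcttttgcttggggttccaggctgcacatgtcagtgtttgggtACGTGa
Ldha had 5 matches to ACGTG in this window, of which 4 came from 2 copies of CACGTG. Hif1a had 3, of which 2 came from 1 copy of CACGTG, Slc16a3 and Ankrd37 had 2 each, and Slc2a1 had 1. GCGTG was matched 2 times before Ankrd37, where the matches overlap, 1 time before Slc2a1 and not in the other 3. In the GENCODE annotation of GRCm38, Slc2a1 spans chr4:119108711-119137983 and Slc16a3 chr11:120948480-120960868, and the Slc16a3 window lies inside these bounds because the annotation also holds an earlier start. The same holds for Ldha (chr7:46841475-46855627), Hif1a (chr12:73901375-73947530) and Ankrd37 (chr8:45996902-46005707). A gene was counted above if any of its 1 to 4 RefSeq windows held the core. No window held either core for Gpi1, the isomerase of the second glycolytic step, and for Tpi1, the triose phosphate isomerase. All 5 windows printed above held ACGTG, which was not so for every gene with a difference below. The window of Pkm nearest to the annotated gene start held neither core, and that of Pfkl held GCGTG 1 time and no ACGTG. With all neutrophil-like cells kept, Pkm and Pfkl were past the fold below and Ldha was not.

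Across lung classes the 34 genes fell into those carried by every class and those concentrated in a few. In the 15 classes that reached 50 cells in both libraries, several core enzymes varied little. Aldoa, the aldolase, ranged 2.54-fold over both libraries summed, from 31.6 CP100k in NK-like to 80.3 CP100k in smooth muscle-like cells. Pgk1, which makes the first ATP of the pathway, ranged 3.53-fold, Gpi1 3.94-fold and Ldha 4.11-fold, while Eno1, the enolase, ranged 14.2-fold. Other genes went down to the level that free RNA, taken up by droplets from outside cells, would give, so no fold is given for them. Slc16a3, the lactate exporter, had its lowest level in B-like cells, the glucose transporter Slc2a3 in alveolar macrophage-like cells, Epas1 in dendritic-like cells and Ldhb, the paralog of Ldha, in NK-like cells. In each of these the level was at or below the free RNA estimate in both libraries.

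**Figure D1:**
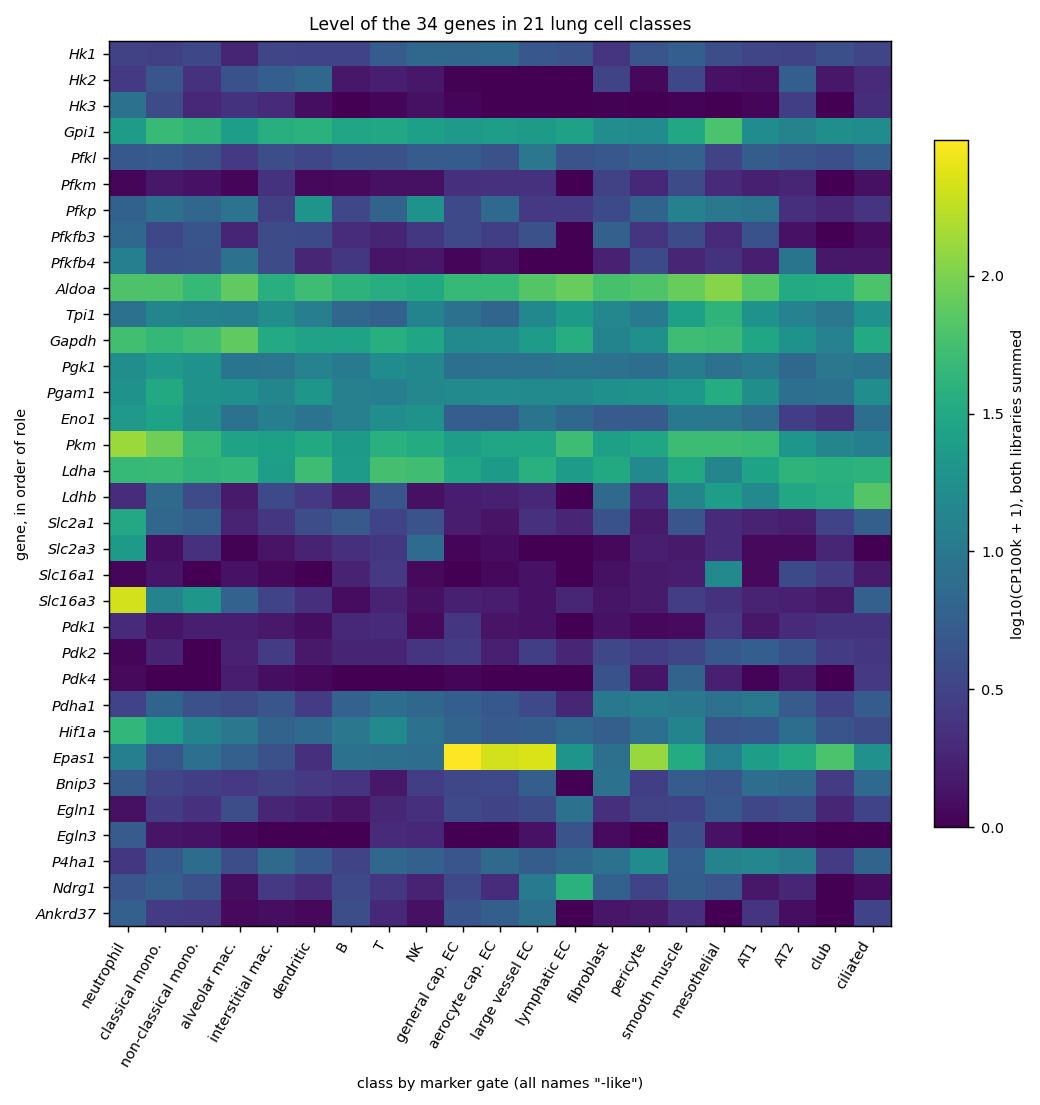
Colour gives log10 of the level in CP100k plus 1, over both libraries, for each of the 34 genes (rows) in each of the 21 classes (columns). Epas1 reaches 310 CP100k in general capillary and 224 CP100k in large vessel endothelial-like cells, and Slc16a3 reaches 211 CP100k in neutrophil-like cells, while Aldoa, Gapdh, Pkm and Ldha are filled across all columns.

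Neutrophil-like cells had the highest levels of the lactate exporter, the pyruvate kinase and both glucose transporters. Slc16a3, which carries lactate out of cells, had a level of 180 CP100k in CM and 216 CP100k in TCM neutrophil-like cells. The next class, non-classical monocyte-like cells, had 19.2 and 21.2 CP100k, and classical monocyte-like cells 16.5 and 10.3 CP100k. In B-like cells, which had 0 UMIs of Slc16a3 in CM and 4 in TCM, the level was below the part that free RNA would give.
Here and below, cells with at least 1000 UMIs were thinned to 1000, and cells with fewer were left out of thinned values. Of the 161 CM and 1094 TCM neutrophil-like cells that remained, 69.6% and 77.2% held a Slc16a3 UMI. In all cells of the class, unthinned, the values were 76.6% and 84.2%. No thinned B-like cell held one, 0 of 506 in CM with an upper bound of 0.726% and 0 of 254 in TCM with 1.44%. Median depths were 1254 and 1546 UMIs in neutrophil-like and 1917 and 1841.5 UMIs in B-like cells.
Pkm, the pyruvate kinase, was also highest in neutrophil-like cells at 83.5 CP100k in CM and 137 CP100k in TCM, followed by classical monocyte-like cells at 75.6 and 93.9 CP100k. Both glucose transporters were highest there as well, with Slc2a1 at 10.7 and 33.5 CP100k and Slc2a3 at 13.1 and 22.8 CP100k. For Slc2a3 the next class was NK-like cells, at 5.65 and 7.89 CP100k.

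Epas1 was highest in cells of blood vessels. Its level was 294 CP100k in CM and 322 CP100k in TCM general capillary endothelial-like cells, 198 and 220 CP100k in aerocyte capillary endothelial-like cells and 197 and 254 CP100k in large vessel endothelial-like cells. Pericyte-like cells had 130 and 122 CP100k, and the few club-like cells, which are epithelial, had 66.5 and 53.9 CP100k. P4ha1, a collagen prolyl hydroxylase that is a HIF target, was highest in pericyte-like cells at 16.0 and 14.5 CP100k and close to that in AT1-like cells at 13.6 and 12.9 CP100k. Ndrg1, another hypoxia target, was highest in lymphatic endothelial-like cells, at 38.4 CP100k over only 24 cells of both libraries.

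Ldhb, the subunit that favours turning lactate into pyruvate, was highest in epithelial cells but not confined to them. Ciliated-like cells had 67.5 CP100k in CM and 64.9 CP100k in TCM, and the few club-like cells 35.5 and 34.5 CP100k. AT2-like cells had 28.4 and 32.0 CP100k, and AT1-like cells 14.8 and 13.1 CP100k. Mesothelial-like cells, which line the lung surface and were few, had 22.5 and 24.2 CP100k. These cells also held the highest level of Slc16a1, a lactate carrier that works in both directions, at 11.0 and 17.9 CP100k from 18 and 26 UMIs. AT2-like cells, which make surfactant, followed at 2.23 and 2.96 CP100k.

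Paralog choice within families was compared between classes as shares of the family's UMIs. The 5-prime UMIs count molecules and were not divided by length. Shares were given where a family had at least 30 UMIs in a class and library.

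Among hexokinases, which trap glucose inside the cell, the leading paralog differed between classes, also between classes of the same lineage. Hk1 made up 97.0% (interval 93.2 to 99.0%) of the family in CM and 97.8% (95.04 to 99.3%) in TCM general capillary endothelial-like cells. In neutrophil-like cells Hk3 led, with 66.7% (48.2 to 82.0%) in CM and 67.4% (61.5 to 72.9%) in TCM. Hk2 led in alveolar macrophage-like cells with 58.2% (45.5 to 70.2%) and 61.8% (49.98 to 72.75%), in fibroblast-like cells with 56.1% and 66.1%, and in AT2-like cells with 50.5% and 53.5%. In smooth muscle-like cells, which are mesenchymal as fibroblasts are, Hk1 led with 51.9% (37.8 to 65.7%) in CM and 77.2% (64.2 to 87.3%) in TCM. T-like cells differed between libraries, with Hk1 at 95.2% (88.3 to 98.7%) in CM and 73.1% (60.9 to 83.2%) in TCM, from 84 and 67 UMIs of the family.

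The phosphofructokinases commit sugar to glycolysis. Pfkp led in dendritic-like cells at 89.4% in CM and 86.4% in TCM, in alveolar macrophage-like cells at 85.2% and 79.7%, and in NK-like cells at 83.5% and 72.5%. Pfkl led in AT2-like cells at 52.9% and 70.7%, with intervals that overlapped, and in general capillary endothelial-like cells at 52.9% and 55.1%. Pfkm, the muscle form, reached its highest level in smooth muscle-like cells, at 2.76 CP100k over both libraries. The bifunctional enzymes Pfkfb3 and Pfkfb4, which set the level of a strong activator of phosphofructokinase, divided the classes. Pfkfb4 made up 94.3% in CM and 97.0% in TCM AT2-like cells and 94.6% and 87.1% in alveolar macrophage-like cells. It made up 14.2% and 11.4% in fibroblast-like cells and 4.41% and 3.42% in general capillary endothelial-like cells, where Pfkfb3 led.

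The share of Ldha in the lactate dehydrogenase family was high in several blood and endothelial classes and lower in others. Its share was 96.6% (92.2 to 98.9%) in CM and 97.8% (96.7 to 98.6%) in TCM neutrophil-like cells. It was 98.5% and 99.1% in alveolar macrophage-like cells, and 98.1% in both libraries in general capillary endothelial-like cells. Classical monocyte-like cells had 83.1% and 89.5%, fibroblast-like cells 83.8% and 82.9%, and smooth muscle-like cells 71.9% and 70.9%. Epithelial and mesothelial classes had the lower shares given next. In AT2-like cells it was 60.6% (57.3 to 63.7%) in CM and 54.7% (51.8 to 57.5%) in TCM, in ciliated-like cells 37.3% and 37.9%, and in mesothelial-like cells 38.3% and 31.4%. The intervals of AT2-like cells overlapped at their ends, and with cells thinned to 1000 UMIs the shares were 54.5% in CM and 51.9% in TCM.

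**Figure D2:**
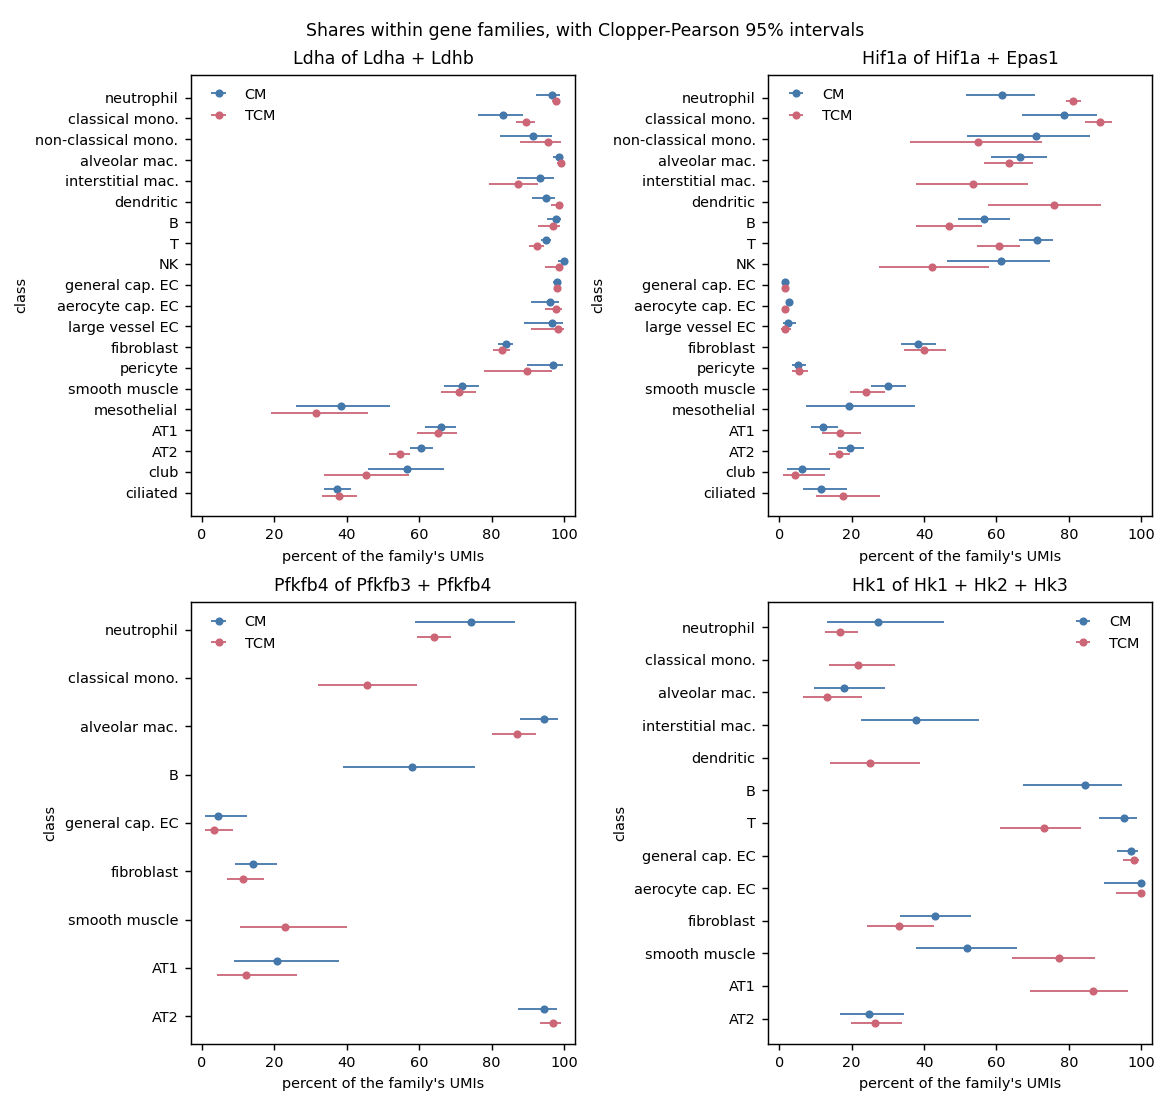
Each panel gives the share of 1 gene among the UMIs of its family in percent (horizontal axis) for the classes with at least 30 UMIs of the family (vertical axis), with points for CM and TCM and Clopper-Pearson 95% intervals. Ldha falls from 98.1% in general capillary endothelial-like to 37.3% in CM ciliated-like cells, and Hif1a stays near 2% in endothelial-like cells.

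The share of Hif1a beside Epas1 was far lower in endothelial-like than in blood classes. Hif1a made up 1.68% (1.42 to 1.96%) of the pair in CM and 1.62% (1.41 to 1.85%) in TCM general capillary endothelial-like cells. It made up 78.8% (67.0 to 87.9%) and 88.6% (84.5 to 91.9%) in classical monocyte-like cells, 66.5% and 63.5% in alveolar macrophage-like cells, and 71.1% and 60.6% in T-like cells. In neutrophil-like cells it was 61.5% (51.7 to 70.6%) in CM and 81.3% (79.1 to 83.3%) in TCM. Free RNA was rich in Epas1, at 78.9 CP100k in CM and 73.8 CP100k in TCM droplets of at most 50 UMIs. At the estimated amount of free RNA it would give neutrophil-like cells 6.90 CP100k of Epas1 in CM and 12.0 CP100k in TCM, where 12.2 and 10.8 CP100k were measured. With free RNA subtracted, the Hif1a share of neutrophil-like cells was 78.0% in CM and 100% in TCM. In T-like cells free RNA would give 4.03 and 9.13 CP100k of Epas1, where 6.30 and 8.83 CP100k were measured. It would give 2.48 and 4.19 CP100k in classical monocyte-like cells, beside 3.85 and 3.58 CP100k measured. In alveolar macrophage-like cells the estimate was 2.03 and 4.34 CP100k, beside 4.32 and 5.18 CP100k measured. The Hif1a shares given for these classes include free RNA. Over all 34 genes and 21 classes, 53 of 714 levels were at or below the free RNA estimate in both libraries, and none of these was among the comparisons below.

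The remaining families had shares in fewer classes. Of the pyruvate dehydrogenase kinases, which keep pyruvate out of mitochondria, Pdk4 led in smooth muscle-like cells at 65.2% in CM and 68.9% in TCM and was 48.1% and 59.7% in fibroblast-like cells. Pdk2 led in AT1-like cells at 83.6% and 97.7%. Of the prolyl hydroxylases that act on HIF, Egln3 made up 95.6% (90.06 to 98.6%) in TCM neutrophil-like cells, 61.5% and 55.8% in smooth muscle-like cells and 1.099% and 0% in general capillary endothelial-like cells, where the rest was Egln1. Slc16a3 made up 100% of the lactate carriers in CM neutrophil-like cells, from 622 of 622 UMIs, and 5177 of 5179 in TCM. In AT2-like cells Slc16a3 made up 25.6% and 16.7%, from 10 UMIs in each library. Its level there was 0.768 CP100k in CM and 0.592 CP100k in TCM, where free RNA would give 0.0841 and 0.577 CP100k.

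The design sets TCM against CM within each class of lung cells. In neutrophil-like cells (235 in CM, 1404 in TCM) 25 of the 34 genes had at least 50 UMIs over both libraries and could be compared. Of these, 9 were at least 1.5-fold higher in TCM (36.0%, against 15.4% of all genes compared) and 1 was at least 1.5-fold lower (against 23.3%). The median of their log2 ratios (TCM over CM) was 0.44, beside −0.14 over all 3920 genes compared, and 20 of the 25 had a ratio above 0. Of the 9 higher genes, 7 had under 50 UMIs in CM, so they passed the minimum through the TCM library, and the interval lay above 0 for 8.

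In CM, 10 of the neutrophil-like cells (4.26%) carried at least 5 UMIs of granule genes of immature neutrophils (Camp, Ltf, Ngp, Elane, Mpo, Prtn3 and Ctsg), beside 8 in TCM (0.570%). They held 12.4% of the class's UMIs in CM and 1.19% in TCM, and granule genes summed to 945 CP100k in CM and 13.997 CP100k in TCM. Without them, 14 genes were higher (against 16.4% of all genes) and 2 lower (against 24%), with a median of 0.61. The genes added above the fold were Hk3, Aldoa, Gapdh, Pgk1, Pgam1 and Ldha, while Tpi1 fell just below it and Bnip3 passed it downward. Median UMIs per cell were higher in TCM. With cells of at least 1000 UMIs thinned to 1000 and the others left out, 12 of 22 genes were higher and 1 lower, against 18.7% and 20.3% of all genes.

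**Figure D3:**
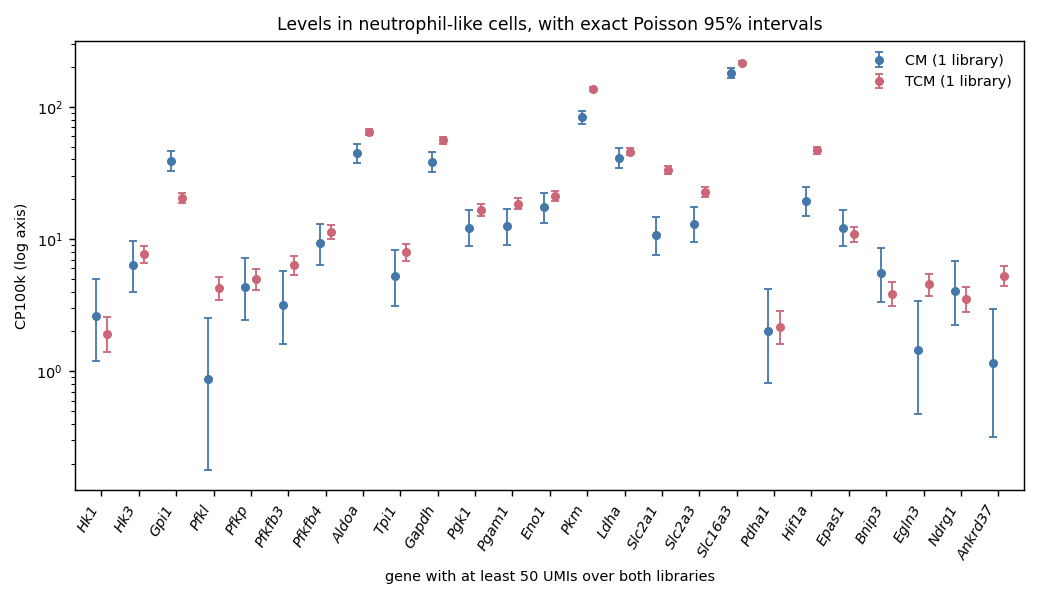
Points give the level in CP100k on a log axis for the 25 compared genes in CM and TCM neutrophil-like cells, with exact Poisson 95% intervals. Slc16a3 lies highest in both libraries at 180 and 216 CP100k, and Pfkl, Ankrd37 and Egln3 are the genes with the widest CM intervals, from 3 to 5 UMIs.

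Both glucose transporters were higher. Slc2a1, the main insulin-independent glucose transporter, had 37 UMIs in CM and 803 UMIs in TCM neutrophil-like cells. That was a level of 10.7 CP100k in CM and 33.5 CP100k in TCM and a log2 ratio of 1.64 (interval 1.16 to 2.16). After thinning to 1000 UMIs, 13.04% (8.26 to 19.2%) of CM and 26.3% (23.7 to 29.0%) of TCM neutrophil-like cells held a Slc2a1 UMI, beside 4.35% and 3.94% of B-like cells. The thinned log2 ratio was smaller, at 1.13. Slc2a3, a transporter of high affinity, went from 13.1 CP100k (45 UMIs) to 22.8 CP100k (547 UMIs), a log2 ratio of 0.80 (0.36 to 1.28). The Slc2a1 share of the pair was 45.1% (34.1 to 56.5%) in CM and 59.5% (56.8 to 62.1%) in TCM.

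Of the genes that regulate the pathway, Hif1a had 67 UMIs (19.4 CP100k) in CM and 1128 UMIs (47.0 CP100k) in TCM, a log2 ratio of 1.27 (0.92 to 1.65). Thinned to equal depth, 19.3% of CM and 34.8% of TCM cells held a Hif1a UMI. Egln3, a prolyl hydroxylase that HIF itself induces, had 5 UMIs in CM and 109 UMIs in TCM, a log2 ratio of 1.65 (0.38 to 3.30). Ankrd37 had 4 and 127 UMIs, a log2 ratio of 2.19 (0.80 to 4.09), which was 0.64 when cells with markers of another lineage were kept. Of the other targets compared, Bnip3, which marks mitochondria for removal, had a log2 ratio of −0.52 (−1.25 to 0.27) and Ndrg1 −0.21 (−1.04 to 0.72), so that neither was higher. Epas1 had −0.17 (−0.64 to 0.34), and its TCM level was below the free RNA estimate given above while its CM level was not.

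At the committed step, Pfkl had 3 UMIs in CM and 102 UMIs in TCM, a level of 0.870 and 4.25 CP100k and a log2 ratio of 2.29 (0.70 to 4.59). Pfkp, from 15 and 120 UMIs, had a log2 ratio of 0.20 (−0.58 to 1.08). Pfkfb3, which activates the step, went from 3.19 to 6.33 CP100k, a log2 ratio of 0.99 (0.11 to 2.02), and Pfkfb4 from 9.28 to 11.3 CP100k, 0.28 (−0.25 to 0.86). Thus the paralogs of both families had different ratios, with intervals that overlapped.

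Upstream of that step the isomerase Gpi1 was lower in TCM. It had 134 UMIs (38.9 CP100k) in CM and 493 UMIs (20.5 CP100k) in TCM, a log2 ratio of −0.92 (−1.20 to −0.63), and −0.71 without the cells with granule genes. Hk3 had 6.38 and 7.66 CP100k, a log2 ratio of 0.26 (−0.38 to 0.97), and Hk1 −0.45 (−1.49 to 0.77). Hk2 had 2 and 43 UMIs and missed the minimum.

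The enzymes from aldolase to pyruvate kinase leaned the same way with smaller ratios. Pkm had 288 UMIs in CM and 3290 UMIs in TCM, and its level went from 83.5 to 137 CP100k, a log2 ratio of 0.71 (0.54 to 0.89). Tpi1 had a log2 ratio of 0.61 (−0.09 to 1.39) from 18 and 191 UMIs. Below the fold were Pgam1 at 0.57 (0.11 to 1.06), Aldoa at 0.54 (0.29 to 0.78), Gapdh at 0.53 (0.27 to 0.80), Pgk1 at 0.44 (−0.02 to 0.94) and Eno1 at 0.28 (−0.11 to 0.69). Past pyruvate, Ldha had a log2 ratio of 0.15 (−0.10 to 0.42) and the exporter Slc16a3 0.26 (0.14 to 0.38). Without the cells with granule genes Ldha had 0.61 (0.30 to 0.94), and the level of Slc16a3 differed little, at 0.19.

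**Figure D4:**
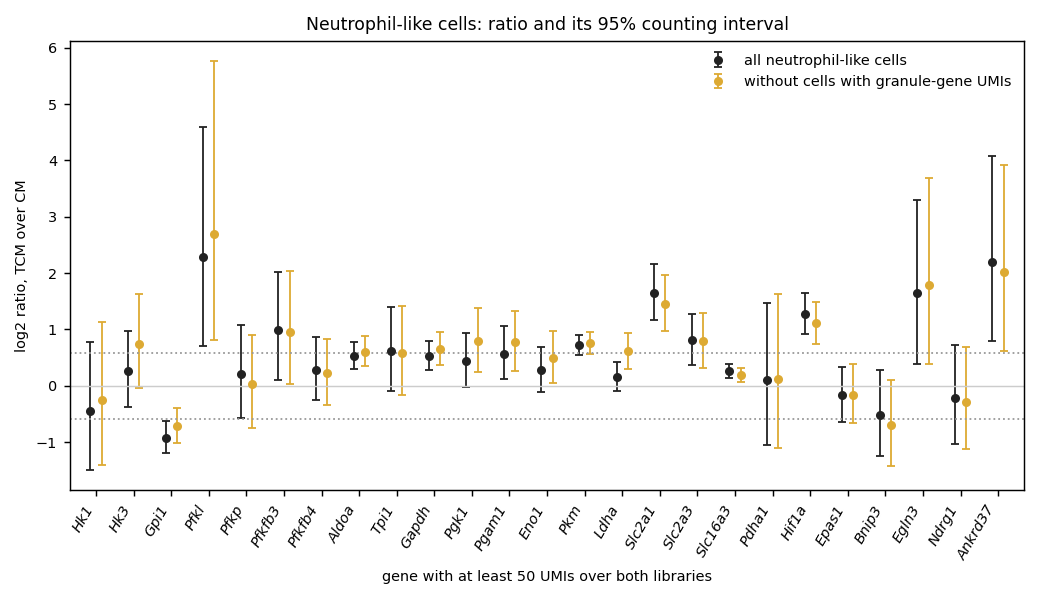
Points give the log2 ratio of TCM over CM for the 25 compared genes with its 95% counting interval, in all neutrophil-like cells (black) and without those that carry granule-gene UMIs (yellow), and dotted lines mark 1.5-fold. Slc2a1 and Hif1a lie above the upper line with both cell sets, Gpi1 lies below the lower line with both, and Ldha moves from 0.15 to 0.61.

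The 9 genes left out of the neutrophil comparison for low counts were Hk2, Pfkm, Ldhb, Slc16a1, Pdk1, Pdk2, Pdk4, Egln1 and P4ha1. The largest sum among them was that of Hk2. Of the pyruvate dehydrogenase group only Pdha1, a subunit of the enzyme itself, was compared, with 7 and 52 UMIs and a log2 ratio of 0.09 (−1.05 to 1.48).

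In classical monocyte-like cells (89 in CM, 199 in TCM), of 18 genes compared, 5 were higher in TCM (27.8%, against 12.3% of all genes) and 1 was lower (5.56%, against 8.62%), with a median log2 ratio of 0.17 beside 0.03 over all genes. Of the 5, Pfkl, Pfkp and Slc2a1 had under 50 UMIs in CM and passed the minimum through the TCM library, and the interval lay above 0 for 3. Hif1a had 52 UMIs (14.3 CP100k) in CM and 272 UMIs (27.8 CP100k) in TCM, a log2 ratio of 0.96 (0.53 to 1.42). Pgam1, the phosphoglycerate mutase, had 77 and 348 UMIs and a log2 ratio of 0.75 (0.39 to 1.13), or 1.26 with cells thinned to 1000 UMIs. Pfkl had 7 and 47 UMIs, 1.32 (0.17 to 2.71). The intervals of Pfkp at 0.65 and of Slc2a1 at 0.60 reached below 0, and all 15 Slc2a1 UMIs of CM came from 9 cells. The Slc2a1 ratio was 1.53 with cells thinned. Slc16a3 was lower, from 16.5 CP100k (60 UMIs) to 10.3 CP100k (101 UMIs), a log2 ratio of −0.68 (−1.15 to −0.19). Hif1a, Pfkl and Slc2a1 were thus past the fold in TCM in both neutrophil-like and classical monocyte-like cells, with Pfkl and Slc2a1 below 50 UMIs in CM in both, while the lactate exporter Slc16a3 had ratios of opposite sign in them. The difference between the classes was not tested.

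Macrophages differed little. In alveolar macrophage-like cells (241 in CM, 309 in TCM), which hold the air side of the lung, 0 of 18 compared genes were higher by the fold, against 9.38% of all genes, and 0 were lower, against 1.57%. The median log2 ratio was 0.04, and the members ran from −0.34 for Eno1 to 0.55 for Egln1. Counts were high enough to bound several genes closely. Gapdh had 77.2 CP100k in CM and 75.3 CP100k in TCM, a log2 ratio of −0.04 (−0.16 to 0.09), Ldha 0.01 (−0.16 to 0.18), Aldoa −0.08 (−0.20 to 0.05) and Pkm −0.02 (−0.24 to 0.20). Hif1a had 8.56 and 9.00 CP100k, 0.07 (−0.31 to 0.46). In interstitial macrophage-like cells (92 in CM, 90 in TCM) 10 genes were compared, 0 were higher (against 6.53%) and 1 was lower (against 4.87%). That gene was Eno1, with 54 UMIs in CM and 37 UMIs in TCM and a log2 ratio of −0.64, whose interval began at −1.28 and ended just below 0, or −2.64 with cells thinned to 1000 UMIs.

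**Figure D5:**
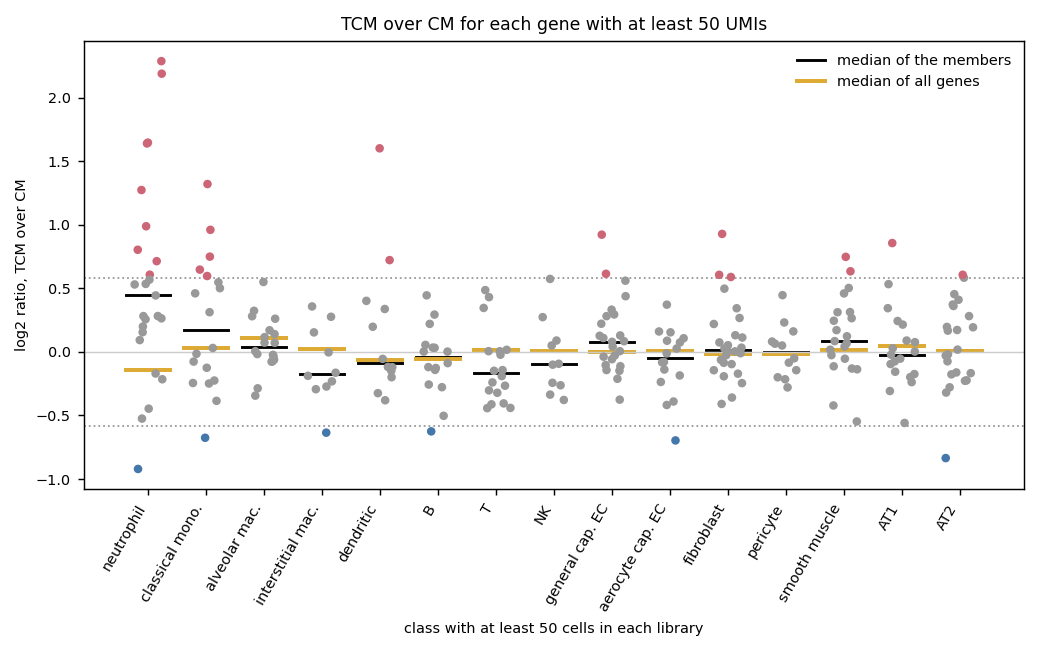
Each point is the log2 ratio of TCM over CM of 1 gene with at least 50 UMIs in 1 of 15 classes, red where at least 1.5-fold higher and blue where at least 1.5-fold lower (dotted lines). Black bars give the median of the members and yellow bars that of all genes compared, which stand at 0.44 and −0.14 in neutrophil-like cells and at 0.04 and 0.11 in alveolar macrophage-like cells.

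Over the 12 classes other than neutrophil-like and macrophage-like cells, 215 comparisons of a gene in a class were possible, and 16 were higher (against 4.87% of all gene and class pairs) and 4 lower (against 4.48%), classical monocyte-like cells included. Fibroblast-like cells had 3 of 26 higher (against 2.56% of all genes) and 0 lower (against 3.61%). Pdk4, the kinase that spares pyruvate for other uses, went from 2.34 CP100k (76 UMIs) to 4.45 CP100k (114 UMIs), a log2 ratio of 0.93 (0.50 to 1.37). The ratio was 1.55 with cells thinned to 1000 UMIs, where 1.82% of 660 CM and 5.45% of 532 TCM cells held a Pdk4 UMI. Bnip3 went from 6.12 to 9.21 CP100k, 0.59 (0.31 to 0.87), and Hk2 from 1.85 to 2.81 CP100k, 0.61 (0.09 to 1.13). Pdk4 was also higher in smooth muscle-like cells, at 3.87 and 6.50 CP100k and 0.75 (0.07 to 1.45), or 1.59 thinned, where 2 of 21 genes were higher (against 5.19%) and 0 lower (against 4.16%). The other was Hk1, at 0.63 (−0.08 to 1.37), whose ratio turned to −0.17 with cells thinned to 1000 UMIs.

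General capillary endothelial-like cells had 2 of 24 genes higher (against 3.47%) and 0 lower (against 2.12%). Ndrg1, a stress and hypoxia response gene, went from 1.68 CP100k (51 UMIs) to 3.19 CP100k (124 UMIs), a log2 ratio of 0.92 (0.44 to 1.42). The ratio was 2.33 with cells thinned to 1000 UMIs, where only 0.615% of 813 CM and 3.00% of 968 TCM cells held a Ndrg1 UMI. Bnip3 went from 1.85 to 2.83 CP100k, 0.61 (0.14 to 1.11), so that it was past the fold in fibroblast-like and general capillary endothelial-like cells and had a ratio below 0 in neutrophil-like cells. In aerocyte capillary endothelial-like cells 0 of 16 were higher (against 4.42%) and 1 lower (against 3.33%), Hif1a at −0.70 (−1.50 to 0.10).

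In epithelium, AT2-like cells had 1 of 23 genes higher (against 6.42%) and 1 lower (against 5.06%). Pfkfb4 went from 6.37 CP100k (83 UMIs) to 9.71 CP100k (164 UMIs), a log2 ratio of 0.61 (0.22 to 1.01), and Eno1 had 33 and 24 UMIs, −0.83 (−1.66 to −0.03), or −0.07 with cells thinned to 1000 UMIs. Median depth of these cells was 2787 UMIs in CM and 5414 UMIs in TCM. In AT1-like cells 1 of 19 was higher (against 4.72%) and 0 lower (against 4.64%), Pfkfb3 at 0.86 (0.10 to 1.63).

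Among the remaining classes, dendritic-like cells had 2 of 12 genes higher (against 5.15%) and 0 lower (against 9.04%). Hk2 had 12 and 38 UMIs, a log2 ratio of 1.602 (0.63 to 2.67) that became −0.86 with cells thinned to 1000 UMIs, and Pgam1 had 0.72 (0.25 to 1.20). B-like cells had 0 of 16 higher (against 4.8%) and 1 lower (against 7.01%), Pdha1 at −0.62 (−1.32 to 0.03). In T-like cells 0 of 18 were higher (against 4.69%) and 0 lower (against 3.52%), in NK-like cells 0 of 10 (against 5.68% and 5.73%) and in pericyte-like cells 0 of 12 (against 4.14% and 3.88%).

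The wider pathway was read from 5 lists of related genes, beside 15.4% of all genes higher and 23.3% lower in neutrophil-like cells. All list values of neutrophil-like cells include the cells with granule-gene UMIs, and none is given without them. In neutrophil-like cells, 2 of the 16 other glycolysis genes could be compared, and both were higher. Pgm2, a phosphoglucomutase, had 7 and 186 UMIs and a log2 ratio of 1.93 (0.86 to 3.27). Slc2a6, a sugar transporter, had 34 and 415 UMIs and 0.81 (0.30 to 1.36). Both had under 50 UMIs in CM and passed the minimum through the TCM library. Of the pentose phosphate list, whose enzymes make NADPH, 1 of 6 was higher and 3 were lower, with a median of −0.58. The first enzyme, G6pdx, was higher at 0.81 (0.18 to 1.51), from 22 UMIs in CM and 268 UMIs in TCM. The lower genes were Pgd at −0.89 (−1.21 to −0.54), Tkt at −0.80 (−1.16 to −0.43) and Pgls at −0.69. Of the pyruvate dehydrogenase and TCA cycle list 0 of 11 were higher and 2 lower, a lower share than that of all genes, the pyruvate carrier Mpc1 at −0.95 (−1.53 to −0.32) and Mdh1 at −0.93 (−1.77 to 0.01).

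Of the other hypoxia targets in neutrophil-like cells 2 of 11 were higher and 3 lower, near the all-gene shares of that class, with a median of −0.05. Fam162a had 5 and 107 UMIs and a log2 ratio of 1.62 (0.35 to 3.27), and Kdm3a, a histone demethylase, 6 and 76 UMIs and 0.86 (−0.33 to 2.35). Both passed the minimum through the TCM library. Hilpda, which blocks fat breakdown in lipid droplets, was lower, from 20.3 CP100k (70 UMIs) to 9.83 CP100k (236 UMIs), −1.05 (−1.44 to −0.64), and so was Higd1a at −0.92. Of the HIF system, 3 genes were compared, 0 were higher and 1 was lower, the coactivator binder Cited2 at −0.67 (−1.10 to −0.22).

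Hilpda did not move in 1 direction across classes. It was lower in AT1-like cells, at 9.93 and 3.97 CP100k and −1.32 (−1.93 to −0.75), and in AT2-like cells at −0.74 (−1.34 to −0.15), and higher in aerocyte capillary endothelial-like cells, at 36.4 and 62.6 CP100k and 0.78 (0.55 to 1.02). In fibroblast-like cells 3 of 22 hypoxia targets were higher (against 2.56%) and 0 lower (against 3.61%), led by Lox, which cross-links collagen, from 16.4 CP100k (533 UMIs) to 30.5 CP100k (781 UMIs), 0.89 (0.73 to 1.06), and including Angptl4, a lipoprotein lipase inhibitor, at 0.72 (0.57 to 0.88). Angptl4 was also higher in pericyte-like cells at 0.91 (0.45 to 1.38), in smooth muscle-like cells at 1.13 (0.46 to 1.85) and in alveolar macrophage-like cells at 0.64 (0.05 to 1.24). In the latter, 1 of 3 HIF system genes was higher (against 9.38%), Vhl at 0.91 (0.06 to 1.83). There 1 of 2 other glycolysis genes was lower (against 1.57%), Aldoc at −0.75 (−1.26 to −0.24). In interstitial macrophage-like cells 1 of 5 hypoxia targets was higher (against 6.53%), Ddit4 at 1.23 (0.41 to 2.11). In classical monocyte-like cells 2 of 5 pentose phosphate genes were higher (against 12.3%), Pgd at 0.87 (0.44 to 1.33) and G6pdx at 0.59 (0.04 to 1.18). Pgd thus had ratios of opposite sign in neutrophil-like and classical monocyte-like cells.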

How the data were processed

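The authors prepared 5-prime droplet libraries (10x Genomics), mapped reads with Cell Ranger to mm10 (GRCm38.p6) and deposited matrices of raw UMI counts per gene and barcode, empty droplets included, with no normalization. The file header names Cell Ranger 4. Cells had at least 500 UMIs, at least 200 genes and at most 10% mitochondrial UMIs. A cell joined the class with most of its 8 gate markers detected (at least 2, more than any other class), unless a class of another lineage reached more than 0.5 times as many. Those cells, 1606 in CM and 1259 in TCM, were left out as mixed, and no doublet caller was run. The 34 genes, marker sets and lists were chosen with earlier results of these data known. Named genes were all 34 and, from the lists, at most 3 per direction and class by size of ratio, with others named where a count needed them.

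Counts were summed per class and library and divided by all counts of the class (CP100k, per 100000). Ratios had exact conditional binomial intervals, levels exact Poisson and shares Clopper-Pearson intervals. Genes needed 50 UMIs over both libraries, and the rule of size was 1.5-fold. A sum of 0 was replaced by 3 counts. Free RNA was profiled in droplets of at most 50 UMIs and its amount, 128 UMIs per CM and 279 per TCM cell, came from 7 blood and club cell genes in B-like and T-like cells. The results were recomputed under 10 other settings, and under 1 chosen after seeing the data. The ratio step was tested on simulated data of the neutrophil comparison. Promoters came from RefSeq GRCm38.p6. Python 3.11.15, numpy 2.4.6, scipy 1.17.1 and pandas 2.3.3 were used. No map of cells to mice and no cell annotation was used here.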

Additional observations from a re-analysis of the deposited data

Results flagged for a closer look

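Pkm was also higher in TCM in the droplets of at most 50 UMIs, which hold free RNA and gave the free RNA profile. Its level there was 21.1 CP100k in CM and 35.5 CP100k in TCM, a log2 ratio of 0.75. Neutrophil-like cells, the class highest in Pkm, were 2.94% of CM and 18.2% of TCM cells. The droplet ratio is therefore no separate check of the ratio within neutrophil-like cells, and its source was not tested. Free RNA would give neutrophil-like cells 1.85 CP100k of Pkm in CM and 5.79 CP100k in TCM, where 83.5 and 137 CP100k were measured.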

How the results depend on the processing

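No paired analysis was possible because each group had 1 library. With 1 library a group no value here has a replicate check. In neutrophil-like cells 10 genes were past 1.5-fold. The other settings gave 9 to 14, except 6 with a minimum of 200 UMIs, and leaving out cells with granule-gene UMIs, chosen after seeing the data, gave 16. In alveolar macrophage-like cells the count of 0 became 1 with free RNA subtracted and 8 with no minimum. In interstitial macrophage-like cells the count of 1 became 2 with cells of mixed lineage kept, 2 with cells thinned, 0 with a minimum of 200 UMIs and 12 with no minimum. In the other classes 20 became 34 with cells of mixed lineage kept, 34 with the mean over cells, 10 with cells thinned, 4 with a minimum of 200 UMIs and 82 with no minimum. Fewer or more genes pass a minimum by construction, and the cause of the other shifts was not tested. Shares over all genes are given only for neutrophil-like cells thinned, centred or without the cells with granule-gene UMIs. The counts under the remaining settings stand without them and are not read as a trait of the 34 genes. Centring neutrophil-like ratios on the all-gene median of −0.14 gave 13 higher and 1 lower, against 20.3% and 16.9% of all genes. Thinning gave 12 and 1, against 18.7% and 20.3%. Of 264 values of the 31 log2 ratios past the fold, 254 stayed within their interval, 8 moved out of it and 2 reversed, Hk1 in smooth muscle-like cells to −0.17 and Hk2 in dendritic-like cells to −0.86, both with cells thinned. Thinning also gave 2.33 for Ndrg1 in general capillary endothelial-like cells, 1.55 and 1.59 for Pdk4 in fibroblast-like and smooth muscle-like cells, 1.26 and 1.53 for Pgam1 and Slc2a1 in classical monocyte-like cells and −2.64 for Eno1 in interstitial macrophage-like cells. Thinned ratios rest on fewer UMIs and are given without intervals, so a larger value is not read as a larger difference. Of 210 values of the 42 shares, 174 stayed within their interval and 36 moved out of it. Only the Ldha share of AT2-like cells and the Hif1a share of neutrophil-like cells are given above under another setting. The other shares are therefore not to be read as stable across settings.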
